A study of Mus musculus with 4 samples.

Results

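Transcripts of 9 epithelial transport genes (Cftr, Slc26a3, Slc26a6, Slc9a2, Slc9a3, Slc4a4, Rhbg, Atp1b1 and Scnn1a) were followed in mouse intestinal crypts. They were taken as all probe sets annotated with exactly 1 of these gene symbols, which gave 22 of the 45037 probe sets that are not array controls. The mutant group held 2 arrays of crypts after tamoxifen-induced deletion of beta-catenin, and the control group held 2 arrays of crypts from control mice, all at day 2. Crypts, the pockets of the intestinal lining that hold stem cells and dividing progenitors, had been cut out by laser, and their mRNA went through 2 rounds of amplification before hybridisation. The strain, age, Cre driver, intestinal segment and the treatment of the controls are not stated, and nothing in the labels says that arrays of a group came from separate mice. Every p-value therefore measures the spread among these arrays only, and part of that spread may be technical, while the number of arrays limits all precision.

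Intestinal epithelium moves salt and acid or base through paired transporters on its apical and basolateral faces. In secretion, chloride that has been loaded across the basolateral membrane leaves through the apical channel Cftr, a route classically placed in crypts. In absorption, apical sodium/proton exchangers of the Slc9 family work in parallel with chloride/bicarbonate exchangers of the Slc26 family, which are best known from the more mature cells nearer the lumen. The sodium pump, of which Atp1b1 encodes a beta subunit, supplies the gradient for both directions.

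Values are given as deposited intensities, on a linear scale, and as log2 levels, which are log2(intensity + 5) after quantile normalization. Differences are mutant minus control on that log2 scale, with the standard error (SE) of the limma fit. Of the 22 probe sets, 19 passed the filter on dim signal, a mean log2 level of at least 4.79, and each of the 9 genes kept at least 1. A gene is represented by its brightest probe set over all arrays. In RefSeq (GRCm38.p6) the genes are spread over 7 chromosomes, with Slc9a2 at chr1:40681712-40768885, Atp1b1 at chr1:164437099-164458355, Slc4a4 at chr5:88793858-89239656, Cftr at chr6:18170687-18322770 and Scnn1a at chr6:125314271-125344943. Slc26a6 lies at chr9:108854043-108913049, Slc26a3 at chr12:31433142-31473922 and Slc9a3 at chr13:74086255-74169442.

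None of the transporter genes passed the test over all 22519 probe sets. At an adjusted p under 0.05, 0 of 19 transporter probe sets were called, beside 0 (0%) of all probe sets tested, and the lowest adjusted p anywhere on the array was 0.449. At an unadjusted p under 0.05 there were 2 of 19 transporter probe sets (10.5%), those of Rhbg and the brightest of Slc26a3, beside 6.28% of all. Of the 9 genes, 8 had a positive and 1 a negative difference, where 50.7% of all genes tested were positive. The median was 0.44, beside 0.0088 over the 11395 genes tested. Both mutant values lay above both control values in 6 genes (66.7%), where 18.9% of all genes tested did so. Both lay below in 1 gene, Cftr, where the background was 19.2%. The 9 genes were chosen with earlier results of these data known, so these counts describe the list and are not evidence of enrichment. With 2 arrays against 2, an exact two-sided permutation test cannot go below p = 0.333.

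**Figure D1:**
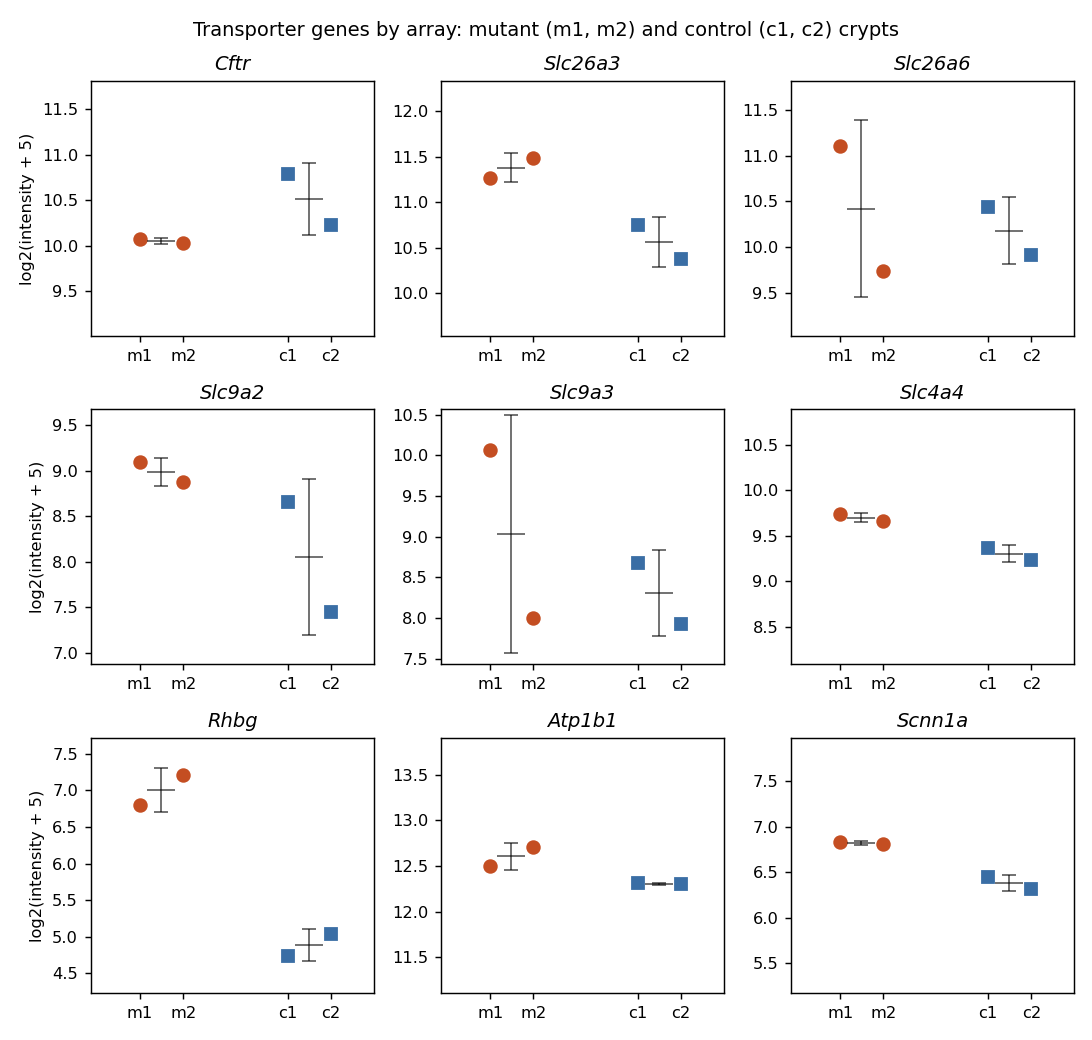
Log2 level, log2(intensity + 5) after quantile normalization, of each transporter gene's brightest probe set on mutant arrays 1 and 2 (circles) and control arrays 1 and 2 (squares), with the group mean and SD (n = 2). Axes differ in position between panels; Rhbg stands apart at about 6.80 and 7.22 in mutants against 4.73 and 5.04 in controls, and Slc26a6 and Slc9a3 show the widest mutant spread.

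**Figure D2:**
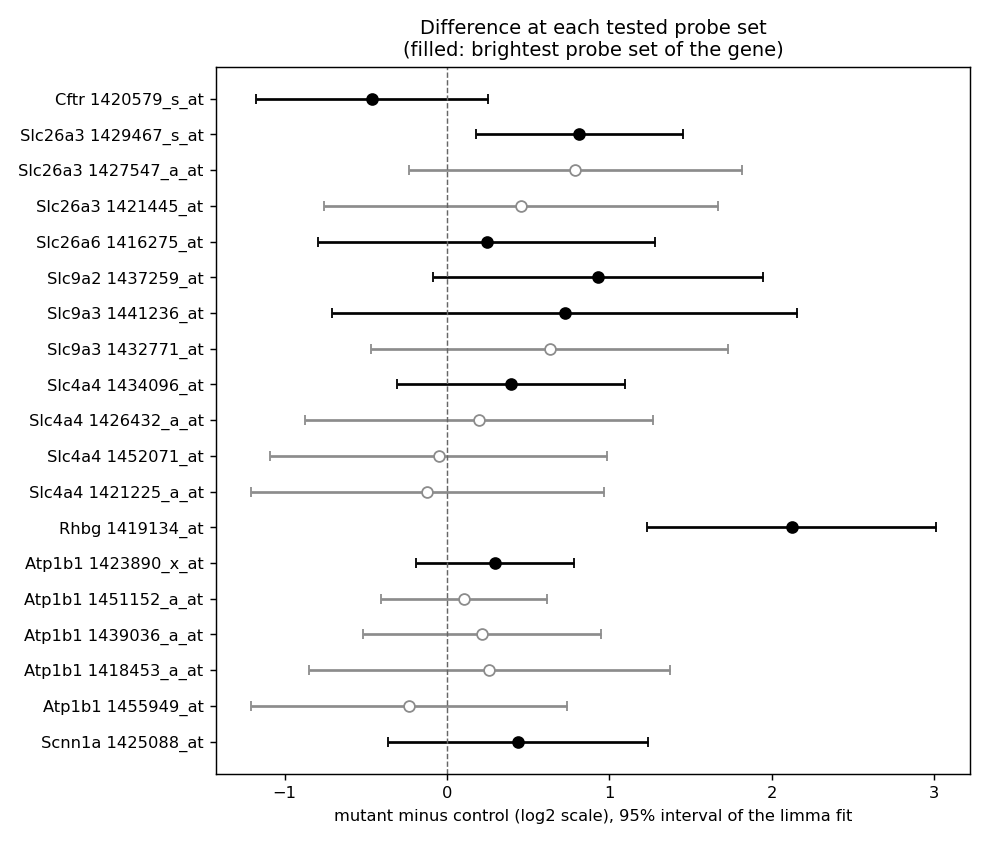
Mutant minus control difference on the log2 scale for each of the 19 tested transporter probe sets, with the 95% interval of the limma fit; filled points are the brightest probe set of each gene. The intervals of Rhbg and of the brightest Slc26a3 probe set lie above 0, and the other 17 include 0.

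Some facts about the arrays touch the values that follow. Epithelial genes (Epcam, Cdh1, Krt8 and 5 others) were bright on every array, with mean log2 levels of 11.16 and 11.12 in mutants and 11.14 and 11.17 in controls. Mutant array 1 also held pancreatic acinar transcripts, with a mean log2 level over 9 genes of 12.40, against 3.95 in mutant array 2 and 4.30 in both controls; their summed deposited intensity was 65223 on that array and between 119 and 294 on the others. Mutants were lower in 4 genes known from the proximal small intestine, Gata4, Cybrd1, Slc40a1 and Onecut2, and mutant array 2 most of all. Their summed intensity was 1709 and 255 in mutants and 2419 and 2231 in controls. All 4 had negative differences, with a median of -1.18. In 3 of them, all but Gata4, both mutants lay below both controls, where 19.2% of all genes tested did so. The actin control probes gave a 5′ to 3′ signal ratio, which drops as RNA or its copies get shorter, of 0.0945 and 0.0448 in mutants and 0.149 and 0.0567 in controls, so that array 1 was the higher in each group. Stem cell markers of the crypt base had mean log2 levels of 7.61 and 7.82 in mutants and 8.68 and 9.21 in controls, and 9 villus enterocyte genes had 11.44 and 10.71 in mutants and 11.37 and 10.55 in controls. Goblet cell genes had mean log2 levels of 11.09 and 10.66 in mutants and 10.01 and 10.43 in controls, with 5 of 5 positive, 3 apart and a median difference of 0.56. Distal small intestine genes (4) had 5.98 and 6.74 in mutants and 5.83 and 5.51 in controls, and their summed intensity was 793 and 563 in mutants and 473 and 276 in controls. The part of these shifts in the transporter values was not tested. In bulk crypts, fewer cells of a type and less RNA per cell cannot be told apart. The deleted gene, Ctnnb1, had log2 levels of 12.02 and 11.85 in mutants and 12.43 and 12.56 in controls at its brightest probe set, a difference of -0.56 (SE 0.22, adjusted p = 0.785). Its other tested probe set went the other way, at 5.95 and 5.71 in mutants and 4.81 and 6.09 in controls (difference 0.38, SE 0.50, groups overlapping).

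**Figure D3:**
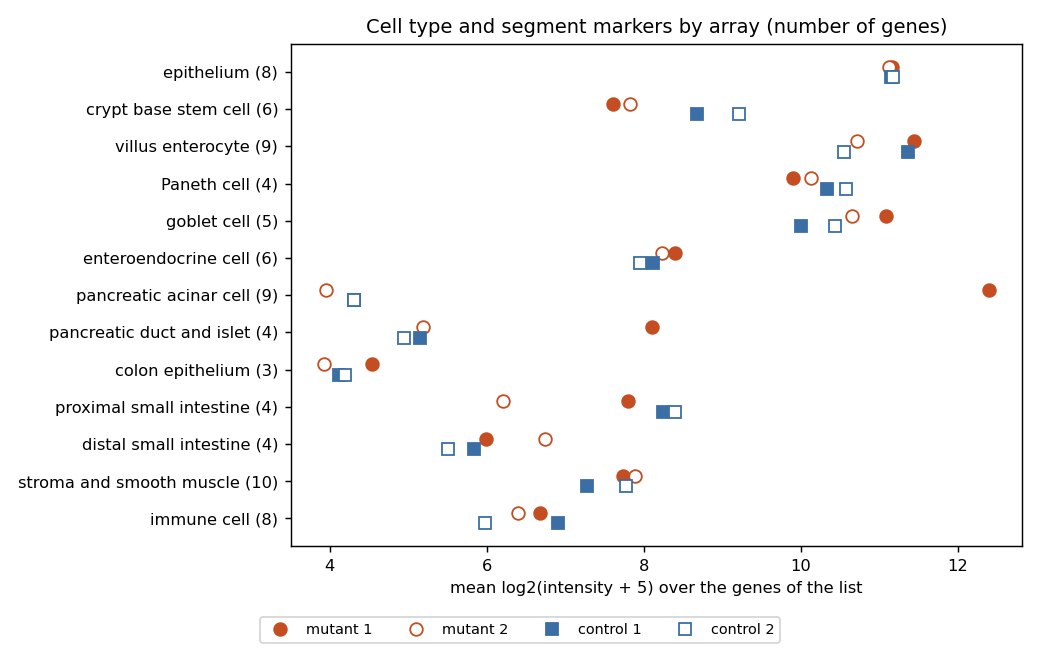
Mean log2(intensity + 5) over the genes of each marker list (number of genes in brackets) on the mutant arrays (circles) and control arrays (squares). Mutant array 1 stands apart for pancreatic acinar genes at 12.40, mutant array 2 for proximal small intestine genes at 6.20, and the epithelial list lies between 11.12 and 11.17 on all arrays.

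Rhbg, an Rh family glycoprotein that carries ammonium or ammonia across the basolateral membrane of epithelia, showed the widest separation of the 9 genes. Its single probe set (1419134_at) had deposited intensities of 128 and 113 in mutants and 28.0 and 23.8 in controls. The log2 levels were 6.80 and 7.22 in mutants, with a mean of 7.01 ± 0.30 (SD, n = 2), and 4.73 and 5.04 in controls, with a mean of 4.88 ± 0.22 (SD, n = 2). Both mutant arrays were high, both control arrays were low, and the gaps of 0.42 between the mutants and 0.31 between the controls were small beside the difference between the groups. The difference was 2.13 (SE 0.39, 95% interval 1.24 to 3.01), or 4.36-fold on the log2(intensity + 5) scale, and it had rank 14 by p among all probe sets tested. It did not pass after adjustment (adjusted p = 0.768). With median centring of the arrays in place of quantile normalization, it passed (difference 2.15, adjusted p = 0.0071). The adjusted p of Rhbg ran between 0.0071 and 0.88 over 13 alternatives. With a pseudocount of 32 in place of 5 the difference was 1.46, since the control level is dim and its fold depends on what is added. With each array left out in turn the difference stayed between 1.96 and 2.26. It was 2.26 without the array that held pancreatic transcripts. The mean control level, 4.88, lay just above the filter of 4.79, so the gene would have been kept from either group alone, but its control level is dim. No promoter sequence of Rhbg, Slc9a2 or Scnn1a was used here. Rhbg lies at chr3:88242874-88254739 of GRCm38.p6.

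Of all 11395 genes tested, those whose values over the 4 arrays lay closest to Rhbg, by Euclidean distance of mean-centred log2 levels, were Tbcel, Slc2a8 and Klf6. Tbcel, a relative of a tubulin folding cofactor, was at a distance of 0.47 and had log2 levels of 8.84 and 9.17 in mutants and 7.21 and 7.49 in controls. Slc2a8, a glucose transporter gene, was at 0.53 with 5.75 and 5.79 in mutants and 3.58 and 4.35 in controls. Klf6, a zinc finger transcription factor gene, was at 0.55 with 10.58 and 10.54 in mutants and 8.68 and 9.06 in controls. The distance describes these 4 arrays only.

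Cftr, the cyclic AMP-regulated chloride and bicarbonate channel of the apical membrane, was the 1 transporter gene of the 9 with a negative difference. Its bright probe set (1420579_s_at) had deposited intensities of 1405 and 878 in mutants and 1607 and 1180 in controls, which overlap. After quantile normalization the log2 levels were 10.08 and 10.02 in mutants and 10.79 and 10.23 in controls. The mutant arrays were close to each other and both lay below the controls, of which array 2 was the nearer. The difference was -0.46 (SE 0.31, 95% interval -1.17 to 0.25, adjusted p = 0.844), smaller than the gap of 0.56 between the controls. It was -0.18 without control array 1 and -0.75 without control array 2. The groups overlapped with the values as deposited, where the difference was -0.31, and with median centring, where it was -0.19. A second probe set (1427767_a_at) was too dim to be tested, at intensities of 2.47 and 0.642 in mutants and 6.40 and 4.02 in controls.

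The anion exchangers had positive differences of unlike steadiness. Slc26a3, the apical chloride/bicarbonate exchanger whose loss in humans causes congenital chloride diarrhoea, had deposited intensities of 3198 and 2619 in mutants and 1575 and 1291 in controls at its brightest probe set (1429467_s_at). The log2 levels were 11.27 and 11.49 in mutants and 10.76 and 10.37 in controls. All mutant values exceeded all control values, before and after normalization. The difference was 0.82 (SE 0.28, 95% interval 0.18 to 1.45), or 1.76-fold, with an unadjusted p of 0.018 and an adjusted p of 0.768. It stayed between 0.63 and 1.03 with each array left out in turn.

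The other tested probe sets of Slc26a3 differed by 0.79 (SE 0.45, groups apart) and 0.46 (SE 0.53, groups overlapping). At the overlapping one (1421445_at) the log2 levels were 7.89 and 8.61 in mutants and 8.55 and 7.03 in controls. Mutant array 2 and control array 1 were high there, and control array 2 was the low one. The remaining probe set (1453151_at) was under the filter, at 25.8 and 13.6 in mutants and 26.0 and 5.94 in controls. This exchanger is known to be abundant in the colon, and colon markers were dim on all arrays. Of 3 measured, Car1 and Hoxb13 lay under the filter and Aqp8 had mean log2 levels of 4.95 in mutants and 5.49 in controls. Distal small intestine genes stood higher in mutants together with Slc26a3. All 3 tested were positive, with a median of 0.80, and the groups were apart for Slc51a and Slc51b, the subunits of a bile acid transporter. Their part in the Slc26a3 values was not tested.

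Slc26a6, an apical exchanger of chloride, bicarbonate and oxalate, was high on 1 mutant array alone. Its deposited intensities were 2828 and 718 in mutants and 1265 and 940 in controls. The log2 levels were 11.11 and 9.74 in mutants and 10.44 and 9.92 in controls, so that mutant array 1 was the highest and mutant array 2 the lowest of the 4. The difference of 0.25 (SE 0.45, adjusted p = 0.949) turned to -0.43 without mutant array 1, the array with pancreatic transcripts, and to -0.018 without control array 2. It stood at 0.91 without mutant array 2 and at 0.51 without control array 1. It was 0.38 without scaling and 0.50 after median centring.

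The promoters of Slc26a3 and Cftr are shown because these genes stood apart in opposite directions and differ in base composition. Each is the 250 bases before a RefSeq transcript start on the plus strand of GRCm38.p6, at chr12:31437969-31438218 for Slc26a3 and chr6:18170437-18170686 for Cftr. Capitals mark every match, on either strand, to the searched motifs, overlapping matches included. The TATA box was searched as TATAAA and the GC box as GGGCGG. The TCF/LEF motif was searched as CTTTGAT. The HNF1 motif was searched as its 6-letter core GTTAAT.
Slc26a3: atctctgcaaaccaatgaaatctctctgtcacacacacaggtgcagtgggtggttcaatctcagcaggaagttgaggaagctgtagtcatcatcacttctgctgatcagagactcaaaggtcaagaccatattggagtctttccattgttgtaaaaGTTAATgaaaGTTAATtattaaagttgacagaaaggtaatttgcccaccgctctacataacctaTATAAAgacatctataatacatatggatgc
Cftr: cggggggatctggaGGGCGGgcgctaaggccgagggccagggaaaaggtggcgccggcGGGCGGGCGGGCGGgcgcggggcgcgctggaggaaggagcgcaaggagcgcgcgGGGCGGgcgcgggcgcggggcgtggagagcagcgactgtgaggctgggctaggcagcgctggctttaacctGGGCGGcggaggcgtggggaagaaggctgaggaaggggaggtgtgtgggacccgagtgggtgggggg

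The Slc26a3 window had a G+C content of 38.8%, with 1 TATA box beginning 30 bases before the start and 2 HNF1 motifs at 94 and 84 bases. The Cftr window had a G+C content of 76.4% and 6 GC boxes, 3 of them overlapping. The median over 32851 such RefSeq windows was 52.4%. The TATA box letters were found in 12.4% of these windows, the GC box in 32.7%, the TCF/LEF motif in 3.21% and the HNF1 motif in 6.43%. Windows were at hand for 6 of the 9 genes, 7 windows in all with 2 for Slc4a4, and the TCF/LEF motif was in 0 of them. These letter matches describe the windows and are not binding data.

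Sodium/proton exchange was represented by Slc9a2 (NHE2) and Slc9a3 (NHE3), both apical exchangers that take up sodium in return for protons. Slc9a2 had deposited intensities of 712 and 378 in mutants and 383 and 172 in controls. In log2 terms the levels were 9.10 and 8.88 in mutants, a mean of 8.99 ± 0.16 (SD, n = 2), and 8.66 and 7.45 in controls, a mean of 8.06 ± 0.86 (SD, n = 2). Mutant values were close together and above both controls, of which array 2 was far the lower. The difference was 0.93 (SE 0.45, 95% interval -0.09 to 1.95, adjusted p = 0.789), less than the gap of 1.21 between the controls. It was 0.33 without control array 2 and 1.57 without control array 1. The groups overlapped in the deposited intensities.

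Slc9a3 was decided by 1 array at its brighter probe set (1441236_at). Deposited intensities were 1393 and 199.991 in mutants and 386 and 240 in controls, and the log2 levels were 10.06 and 7.999 in mutants and 8.68 and 7.93 in controls. Mutant array 1 was high and the other arrays lay within 0.75 of each other. The difference of 0.73 (SE 0.63, adjusted p = 0.87) turned to -0.30 without mutant array 1 and reached 1.73 without mutant array 2. It was 1.12 without control array 1 and 0.35 without control array 2. The dimmer probe set (1432771_at) differed by 0.63 (SE 0.48), at 5.13 and 5.36 in mutants and 5.001 and 4.23 in controls. It passed the filter only through its mutant values, so its direction is no support.

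Slc4a4 encodes the sodium/bicarbonate cotransporter NBCe1, which loads bicarbonate across the basolateral membrane. At its brightest probe set (1434096_at) the deposited intensities were 1106 and 686 in mutants and 609 and 591 in controls. On the log2 scale the levels were 9.74 and 9.66 in mutants and 9.37 and 9.24 in controls, a difference of 0.40 (SE 0.31, adjusted p = 0.859). The groups did not overlap, and the difference stayed between 0.34 and 0.47 with each array left out in turn. The 3 other tested probe sets of Slc4a4 had overlapping groups and differed by 0.20 (SE 0.47), -0.05 (SE 0.45) and -0.12 (SE 0.48). The probe sets therefore disagreed in sign, and their mean difference was 0.11. After median centring the brightest probe set differed by 0.65.

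Atp1b1, the beta-1 subunit that brings the sodium pump to the basolateral membrane, was measured by 5 probe sets. The brightest (1423890_x_at) had deposited intensities of 6972 and 6955 in mutants and 4290 and 5028 in controls. Log2 levels were 12.50 and 12.71 in mutants and 12.31 and 12.30 in controls, a difference of 0.30 (SE 0.21, adjusted p = 0.854), with the groups apart. It was 0.18 without mutant array 2 and 0.43 without mutant array 1. It was 0.58 without scaling and 0.70 after median centring, and the mean over all 5 probe sets was 0.13. The suffix of that probe set marks probes that can bind related transcripts. The other 4 had overlapping groups and differed by between -0.23 and 0.26. At 1418453_a_at the controls alone spanned 10.35 and 8.82, with 10.05 and 9.65 in mutants.

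Scnn1a, the alpha subunit of the epithelial sodium channel ENaC, had deposited intensities of 132 and 84.1 in mutants and 89.8 and 72.0 in controls, which overlap. Normalized log2 levels were 6.83 and 6.80 in mutants and 6.44 and 6.32 in controls, where the groups were apart. The difference was 0.44 (SE 0.35, adjusted p = 0.867) and stayed between 0.37 and 0.52 with each array left out. Among the 9 genes, Scnn1a and Slc4a4 had the smallest gaps between arrays of a group relative to their differences, next to Rhbg.

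**Figure D4:**
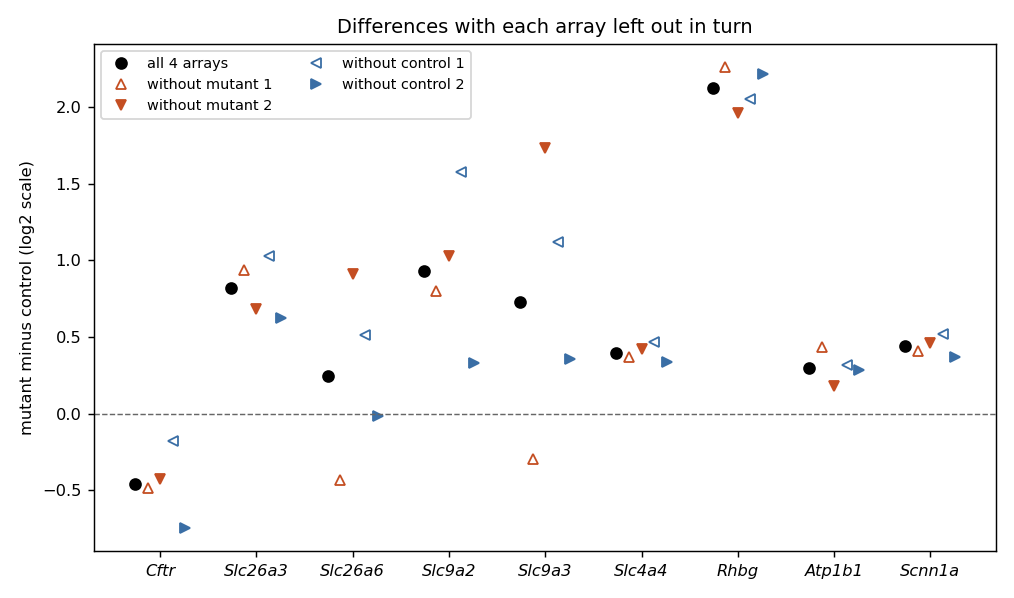
Mutant minus control difference on the log2 scale for the brightest probe set of each transporter gene with all 4 arrays and with each array left out. Slc26a6 and Slc9a3 lie below 0 without mutant array 1, and Slc26a6 also, at -0.018, without control array 2, while Rhbg stays between 1.96 and 2.26 and Slc4a4 between 0.34 and 0.47, and Atp1b1 runs from 0.18 without mutant array 2 to 0.43 without mutant array 1.

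Gaps between the arrays of a group were also counted over the 9 genes. In the controls, 8 of 9 transporter genes were higher on array 1 than on array 2, where 43.2% of all genes tested were, and 6 of 9 had their lowest value on control array 2. In the mutants, 6 of 9 were higher on array 1, where 49.8% of all genes were. In 4 genes (Cftr, Slc26a6, Slc9a2 and Slc9a3) the gap between arrays of 1 group exceeded the difference between the groups.

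The surrounding transport machinery was read from 7 lists with 84 genes, of which 72 had a probe set named for them alone and 48 passed the filter. By limma 0 of the 48 genes were called at an adjusted p under 0.05, and 7 (14.6%) had an unadjusted p under 0.05, beside 6.28% of all probe sets tested. In all, 29 had a positive and 19 a negative difference, with a median of 0.09. The groups did not overlap in 11 genes with higher mutants (22.9%) and in 7 with lower mutants (14.6%), near the backgrounds of 18.9% and 19.2%. List directions were compared across scalings after their values had been seen. Of all genes tested, 50.7% had a positive difference, against 51.1% without scaling and 60.6% after median centring.

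The basolateral chloride loading and potassium channel list leaned lower, with 7 of 8 tested genes negative and a median of -0.46 (6 of 8 negative without scaling, and also after median centring). Slc12a2, the cotransporter that loads chloride for secretion through Cftr and is also a crypt base stem cell marker, had log2 levels of 9.95 and 10.16 in mutants and 10.85 and 11.52 in controls. Its difference was -1.13 (SE 0.32, adjusted p = 0.768), and both its other tested probe sets had the same sign. Kcnq1, the pore of a basolateral potassium channel, had 7.70 and 6.45 in mutants and 8.24 and 8.45 in controls, a difference of -1.27 (SE 0.46). Kcne3, the channel's accessory subunit, had 8.49 and 7.92 in mutants and 9.14 and 9.48 in controls, a difference of -1.10 (SE 0.36). In these 3 genes both mutants were below both controls, as in Cftr, and none passed the test (adjusted p = 0.768 each). Over all genes tested 19.2% lay lower in this way and 18.9% higher. The 1 positive gene, Kcnk5, had the groups apart in the other direction. Its log2 levels were 8.53 and 7.90 in mutants and 7.56 and 7.49 in controls (difference 0.69, SE 0.37).

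The sodium/proton exchange list had 5 positive and 2 negative of 7 tested genes, with a median of 0.29. Slc9a3r1 encodes NHERF1, a scaffold that binds NHE3 and CFTR, and had log2 levels of 12.06 and 11.67 in mutants and 11.21 and 10.69 in controls. Its difference was 0.91 (SE 0.29, adjusted p = 0.768), with both other tested probe sets in the same direction. Chp2, a calcium-binding cofactor of these exchangers, differed by 0.85 (SE 0.38) and Pdzd3, another scaffold of the family, by 0.75 (SE 0.36). In all 3 genes the groups were apart. Pdzk1, the scaffold NHERF3, was split by array number instead, at 8.45 and 4.79 in mutants and 9.08 and 6.51 in controls.

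In the anion exchange and chloride channel list, all 6 tested genes had positive differences (5 of 6 with the values as deposited), with a median of 0.25, and 2 had groups apart. The median was 0.39 without scaling and 0.51 after median centring. The genes apart were Clcn2, a chloride channel gene, at 0.48 (SE 0.35) and the sulfate transporter gene Slc26a2 at 0.33 (SE 0.32). Ano1, a calcium-activated chloride channel gene, had log2 levels of 7.51 and 4.93 in mutants and 4.39 and 5.57 in controls. Its high value was on the array with pancreatic transcripts. In the ENaC list the channel subunit genes Scnn1b and Scnn1g lay under the filter, and the 7 tested genes act in the control of the channel. All 7 were positive under each of the 3 scalings, which reuse the same 4 arrays, with a median of 0.30. The groups were apart in 2 of them, Nedd4l and the protease gene Tmprss4. The membrane protease gene St14 differed by 0.42 (SE 0.30, groups overlapping), the ubiquitin ligase gene Nedd4l, which removes ENaC, by 0.45 (SE 0.34, with 1 of its 2 other tested probe sets opposite in sign), and the mineralocorticoid receptor gene Nr3c2 by 0.30 (SE 0.40, groups overlapping).

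The sodium pump list had 3 positive and 2 negative of 5 tested genes, with a median of 0.008 and overlapping groups throughout (1 positive, 4 negative and a median of -0.12 with the values as deposited). Atp1b3, another beta subunit, differed by -0.34 (SE 0.37), the pump regulator gene Fxyd3 by -0.23 (SE 0.38) and Fxyd5 by 0.10 (SE 0.37). In the ammonia list the Rh family genes Rhcg, Rhag and Rhd lay under the filter, so no other ammonium transporter was compared with Rhbg. The 3 tested genes are enzymes of ammonia metabolism, and all 3 had negative differences, opposite to Rhbg, under each of the 3 scalings. The median was -0.57, against -0.35 without scaling and -0.23 after median centring. Cps1, which fixes ammonia into carbamoyl phosphate, had log2 levels of 12.37 and 12.00 in mutants and 12.70 and 12.81 in controls, a difference of -0.57 (SE 0.23, adjusted p = 0.785). Glul, glutamine synthetase, differed by -0.65 (SE 0.32) with its other tested probe set opposite in sign. Otc, of the urea cycle, differed by -0.49 (SE 0.42), with overlapping groups and 1 of its 2 other tested probe sets opposite in sign.

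The list of transport regulators had 7 positive and 5 negative of 12 tested genes, with a median of 0.03. The split depended on the scaling, with 8 positive, 4 negative and a median of 0.20 without scaling, and 10 positive, 2 negative and a median of 0.32 after median centring. Car4, a membrane-bound carbonic anhydrase that handles bicarbonate at the apical face, had log2 levels of 11.07 and 10.36 in mutants and 8.17 and 8.38 in controls. Its difference of 2.44 (SE 0.35, adjusted p = 0.449) shared the lowest adjusted p on the array with 4 other probe sets. Car2, the cytosolic carbonic anhydrase, differed the other way, at 7.49 and 6.08 in mutants and 8.23 and 7.51 in controls (difference -1.09, SE 0.52). Guca2a, whose peptide guanylin stimulates Cftr through cyclic GMP, had 11.61 and 12.30 in mutants and 10.51 and 10.91 in controls (difference 1.25, SE 0.31, adjusted p = 0.768).

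**Figure D5:**
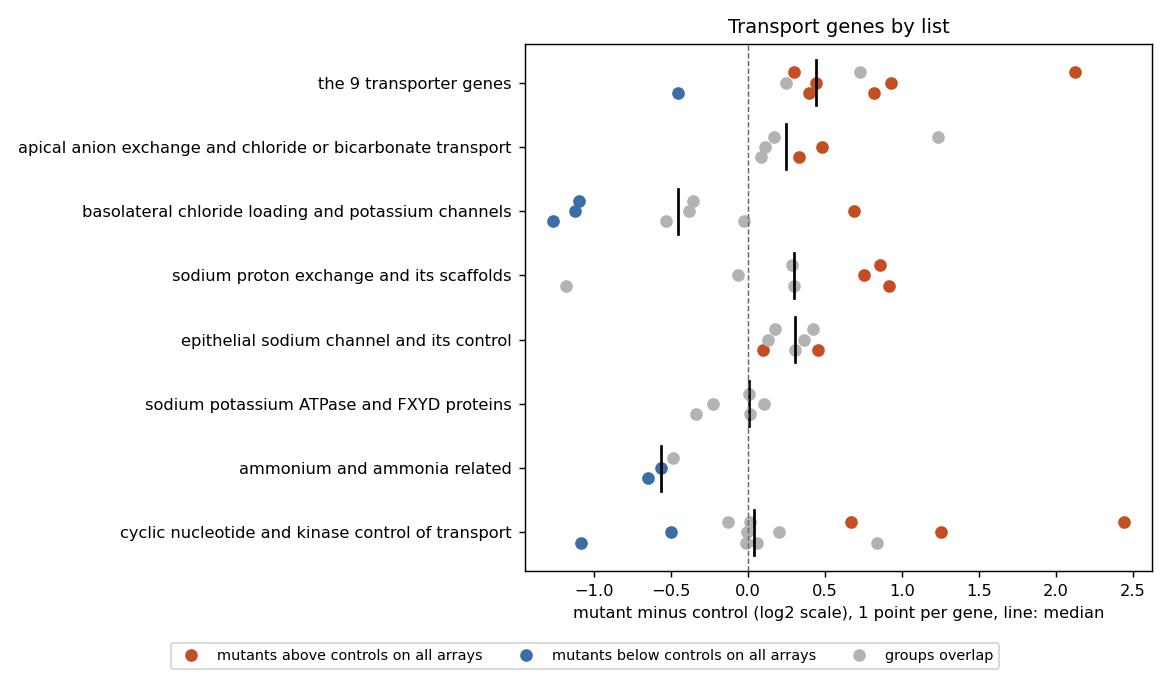
Mutant minus control difference on the log2 scale for the 9 transporter genes and the tested genes of 7 transport lists, 1 point per gene, coloured by whether the mutant and control arrays overlap, with the median as a line. The basolateral chloride loading and potassium channel list has its median at -0.46 and the ammonia list at -0.57, and the 9 transporter genes at 0.44.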

How the data were processed

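Transcripts of laser-captured crypts were measured on 4 single-colour arrays, 2 per group. The submitters' processing notes name MAS5. Its linear intensity per probe set is what the authors deposited, and no version or scaling target is stated there. MAS5 subtracts mismatch signal, so dim probe sets are noisy, and amplification shortens transcripts from the 5′ end.

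Of 45101 probe sets, 64 controls were left out. Names came from the platform annotation, where 34945 of the rest have 1 gene symbol, 932 several and 9160 none; those with several were not named. The pseudocount of 5 is the rounded 20th percentile of all values. Trimmed means (2%) differed by up to 1.53-fold between arrays, over the limit of 1.1, and log2 values were therefore quantile normalized. Probe sets at or above the median (50th percentile) of mean log2 level were tested, 22519 for 11395 genes.

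The fit of mutant against control used limma 3.58.1 in R 4.3.3 (lmFit, eBayes with intensity trend, no covariate, two-sided, Benjamini-Hochberg over all tested probe sets), with 2 residual and 6.4 prior degrees of freedom. The procedure was tested on simulated data. Array correlations over tested probe sets were 0.918 within mutants, 0.932 within controls and 0.912 to 0.936 across groups. The transporter genes, gene lists and tests were chosen with earlier results of these data known. Named were the transporter genes, the 3 genes of each list with the smallest p and the 3 genes nearest to Rhbg. Pdzk1, Tmprss4, Kcnk5 and the Rh family and ENaC subunit genes under the filter were named after their values were seen. Promoter windows are RefSeq sequence (GRCm38.p6); the gene names of the array were not remapped. Alternatives were no scaling, median centring, other pseudocounts (1 and 32), no filter, a stricter one (60th percentile), no trend, robust estimation, a replicate block, the mean over probe sets and each array left out.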

Additional observations from a re-analysis of the deposited data

How the results depend on the processing

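Of 121 alternative values for the 9 genes, 117 kept their direction and, where they had an adjusted p, their side of the threshold. The changed filters, no trend, robust estimation and the replicate block leave every difference as it was. Direction could not turn there, so the count of values that kept it overstates how steady the directions were. The means over probe sets had no adjusted p and were compared by direction alone. Of the other values, 3 turned and 1, that of Rhbg, passed. With median centring, 102 probe sets passed over all tested and 1 transporter probe set did (Rhbg, 2.15), 0 genes were lower without overlap, and the median of all genes moved to 0.13, against which the transporter median was 0.70. Genes apart over the whole array were then 18.7% higher and 10.1% lower. With the values as deposited, 2 probe sets passed, 0 transporter genes were lower and 4 higher without overlap (14.9% of all genes in each direction), with a median of 0.58. The cause of these changes was not tested. With the replicate block, 1 probe set passed over all and 0 of the transporters did. The sample numbers showed little pairing (correlation of same-numbered deviations 0.0339). Each group holds both sample numbers, so the block cannot change a difference, only its SE and p, and says nothing about direction. With each array left out, between 0 and 90 probe sets passed over all (20 without mutant array 1, 90 without mutant array 2), 1 or 2 transporter genes were lower and 6 to 8 higher without overlap, Slc26a6 ran from -0.43 to 0.91, also at -0.018, and Slc9a3 from -0.30 to 1.73. The other alternatives gave 0 transporter calls. The counts without overlap with an array left out set 1 array against 2, which lie apart more readily than 2 against 2. No share of all genes was set beside these counts, so they add no support to the main ones. No detection calls were used here, so dim levels such as that of Rhbg in controls have no measured background beside them. No result was at 4 or more arrays a group, so single arrays were not screened as outliers.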
